A study of Homo sapiens with 2 samples.

Results

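The peaks described here are the places in the 3' untranslated regions (3' UTRs) of messenger RNAs where RNA recovered with the helicase eIF4A1 piled up over a control. They were chosen as the peaks that the authors' annotation puts in the class "3' UTR", with each peak counted once, and there were 244 of them among 1919 annotated peaks (12.7%, exact Clopper-Pearson 95% interval 11.3 to 14.3). In the 244 peaks the median fold over control was 3.99, on a median of 3 reads at the summit, and the highest fold was 10.6, in the kinesin gene KIF3C. Most summits lay near the 3' end of the gene, at a median distance of 1958.5 bases, which follows in part from the class itself. Of the 232 peaks with a distance, 18.1% lay more than 10 kb away. Of 43 genes of fatty acid and sterol synthesis 7 held such a peak (16.3%), beside 1.12% of all protein-coding genes. That list was written after some of its genes had been noticed in these data, so its count is a description only. CLIP2 and APLP2 held 3 peaks each, more than any other gene.

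DU145, an established line derived from human prostate cancer, was the only cell source, and no drug, gene edit or other treatment is given for it. Cytoplasmic lysate was pre-cleared on beads, and 1 portion was taken with a rabbit antibody against eIF4A1 and the other with control rabbit IgG, so the 2 groups share cells and lysis and differ in the antibody alone. Each group was 1 library, made by random priming with a strand mark, from a single line under 1 condition. No value therefore has a replicate error and no test between groups was made. Intervals given for shares cover counting error only, and PCR reads are not independent molecules.

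A 3' UTR is the stretch of an mRNA between the stop codon and the poly(A) tail, and it carries the sites through which RNA-binding proteins and microRNAs act on the stability, place and translation of the message. eIF4A1 is the DEAD-box helicase of the cap-binding complex eIF4F, and its known work is to unwind RNA ahead of the scanning ribosome in the 5' leader. The same mRNA is bent into a loop when the poly(A)-binding protein on the tail meets the eIF4G scaffold that holds eIF4A1 at the cap. The labels' protocols describe no crosslinking and no trimming of the bound RNA, so an immunoprecipitate can carry a whole message and a peak marks where recovered fragments stacked, not a contact site. The amount of a message in the lysate and the share of it bound to eIF4A1 cannot be told apart from these values.

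The sequence around the summit of 1 peak, in NRGN, is printed as an example and does not stand for the class. NRGN encodes neurogranin, a calmodulin-binding protein, and its peak was the only one of the 244 whose summit lies in a stretch of reference sequence used here. That stretch is the promoter window of NRGN-AS1, an antisense gene. The 30 bases are chr11:124746643-124746672 (GRCh38.p14, RefSeq), read on the plus strand, which is the strand of NRGN, and the capital letter marks the summit, at position 20 from the 5' end.

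NRGN 3' UTR peak: ccaatcttccttcttttgcTtctcgcccac

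Of these 30 bases 25 are pyrimidines and 15 are G or C (50%), and over the 61 bases of the peak that the reference stretch covers the G and C share was 55.7%. No other peak's sequence was available to compare these values with. The whole peak runs from 124746604 to 124746672, with its summit 548 bases from the 3' end of NRGN, and a fold of 6.65 on 6 reads. The authors' table lists it under the neighbouring gene VSIG2, and the antisense gene NRGN-AS1 overlaps it. The strand of a peak's reads was not used here, so sense and antisense RNA cannot be told apart there.

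Each peak's fold is the authors' value, the reads at its summit plus 1 over the control background plus 1, and its reads and background were recovered from the deposited fold and p-value. The 244 folds ran from 2.93 to 10.6 with quartiles of 3.93 and 5.11. Their reads ran from 2 to 13. Of the peaks, 30 (12.3%) rested on 2 reads, 97 (39.8%) on 3, 44 (18.0%) on 4 and 73 on 5 or more. Only 5 (2.05%) had at least 10. Over all annotated peaks the shares were 19.3%, 37.2% and 16.7% for 2, 3 and 4 reads, and 4.59% for at least 10. The values were therefore stepped rather than smooth, with 88 distinct folds in all, and 43 peaks had the identical fold of 3.93 that 3 reads over the usual background of 0.0176 expected reads give. A step of 1 read is within counting error, so peaks next to each other in the order by fold did not differ beyond it.

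Counts of strong peaks in the 3' UTR class were near those of the whole set. A fold of at least 5 was reached by 64 of the 244 (26.2%, interval 20.8 to 32.2), beside 22.5% of all annotated peaks. A −log10 q of at least 5 was reached by 60 (24.6%, interval 19.3 to 30.5), beside 26.3%. At least 5 reads stood at 73 (29.9%, interval 24.2 to 36.1), beside 26.7%. Each of these intervals covers the value of the whole set. Promoter-class peaks had a fold of at least 5 in 25.6%, inside the interval of the 3' UTR class, and exon-class peaks in 19.3% (interval 15.4 to 23.6), which is below it although the intervals overlap. Intron-class peaks (5.26%, interval 1.73 to 11.9) and distal intergenic peaks (8.0%, interval 2.99 to 16.6) lay below it, and 64.2% of intron-class peaks rested on only 2 reads, against 12.3% in 3' UTRs. The peaks in 3' UTRs were short, from 20 to 263 bases with a median of 30, and 91 of them (37.3%) had a length of exactly 20 bases. Short peaks were not particular to the class. All annotated peaks had a median of 27 bases, and 40.3% of them were exactly 20 bases long.

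**Figure D1:**
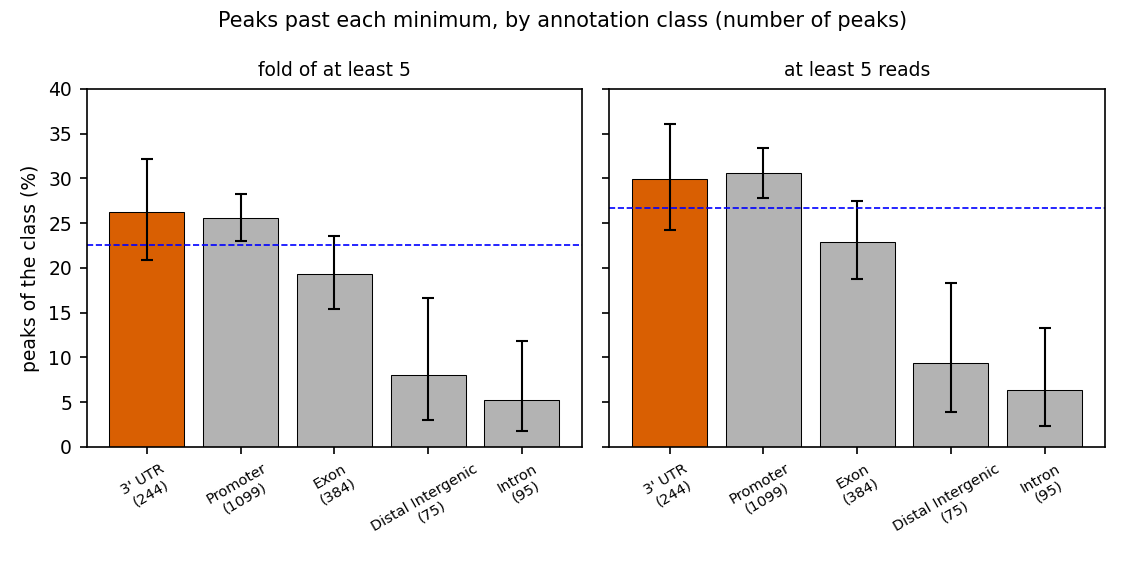
Share of the peaks of each annotation class (percent) with a fold of at least 5 (left) and with at least 5 reads at the summit (right); bars start at 0, whiskers are exact 95% binomial intervals, the dashed line is the share over all 1919 annotated peaks and numbers in brackets are peaks. The 3' UTR bars (26.2% and 29.9%) stand beside the promoter and exon bars, above those of introns and intergenic sequence.

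The highest folds and the highest read numbers belonged to different peaks. KIF3C, with 10 reads over a background of 0.0352, had the fold of 10.6, while a peak in CLIP2 had 13 reads over a background of 1.76 and a fold of 5.07. At least 8 reads were found at 13 peaks, and 8 of these also had the highest backgrounds of the class, 0.880 or 1.76 expected reads. STAT3 had 10 reads, CDA, the gene of cytidine deaminase, 9, and ENO1, TIMP2 and APLP2 8 each, all over a background of 0.880. AKR1B1, encoding aldose reductase, and LOXL2, encoding a lysyl oxidase of the extracellular matrix, matched the 10 reads of KIF3C but over 1.76, which left each with a fold of 3.99 and a −log10 q of 1.31. Even these backgrounds amount to no more than 1.76 expected reads. The folds of the 8 peaks, from 3.99 to 5.85, were no higher than those of many peaks on 4 to 6 reads.

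**Figure D2:**
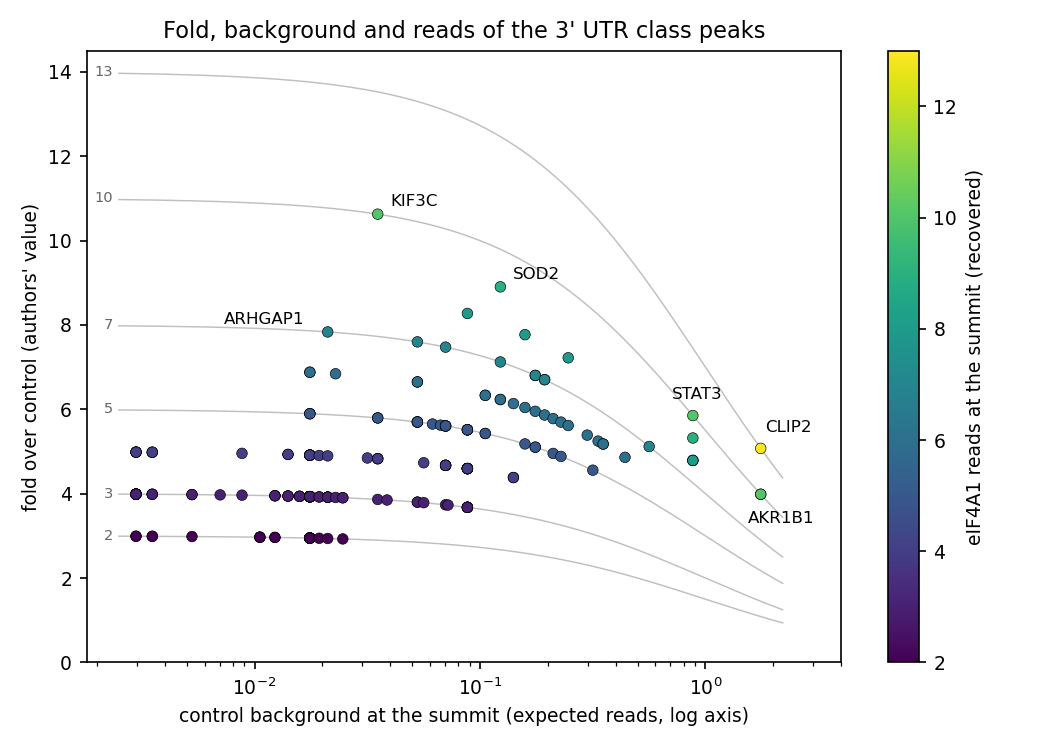
Fold over control (authors' value, linear axis) against the recovered control background in expected reads (log axis) for the 244 peaks of the 3' UTR class; each point is a peak, colour gives its reads and the grey lines join equal read numbers, printed at the left end. KIF3C is highest at 10.6 with 10 reads, and the peaks with a background near 1 or more (STAT3, CLIP2, AKR1B1 and the others) sit lower in spite of 8 to 13 reads.

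The class was checked against position along the gene. The distance from the summit to the 3' end of the RefSeq gene that holds it, in genomic bases with introns counted, could be had for 232 peaks. It was within 3 kb in 142 of them (61.2%, interval 54.6 to 67.5), within 1 kb in 69 (29.7%) and within 0.5 kb in 51 (22.0%). In the exon class 15.4% lay within 3 kb (interval 11.8 to 19.7), in the promoter class 25.4% (22.8 to 28.1) and in the intron class 4.11% (0.856 to 11.5). The median distance was 1958.5 bases in the 3' UTR class against 16313.5 in the exon class, although the genes holding them had medians of 50482 and 63180.5 bases. Nearness to the 3' end follows in part from the class itself, so these values describe the label and are not a separate finding.

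The closest summits reached the very end of the gene. In CLIP2 a summit lay 9 bases from the 3' end, in PCSK1N, a granin-like inhibitor of prohormone convertase, 10 bases, in the autophagy kinase gene ULK2 12 bases and in the mitochondrial thioredoxin reductase gene TXNRD2 22 bases. Within 50 bases of the 3' end there were 8 summits in all. At the other extreme, 42 peaks (18.1%, interval 13.4 to 23.7) lay more than 10 kb from the 3' end of their gene. The farthest was in RB1, the retinoblastoma tumour suppressor, at 121789 bases. The distance is to the outermost end of the gene and not of the transcript that gave the class, and exon structures of single transcripts were not used here.

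The distant peaks had a lower median fold than the nearer ones. Among the 42 peaks beyond 10 kb the median fold was 3.93 on 3 reads, and 4 (9.52%, interval 2.66 to 22.6) had a fold of at least 5. The share was 27.5% (17.5 to 39.6) within 1 kb, 32.9% (22.3 to 44.9) between 1 and 3 kb and 27.1% (15.3 to 41.8) between 3 and 10 kb. The intervals of the distant peaks and of each nearer bin overlap, but such overlap does not measure the error of a difference, and the difference was not tested. The distant peaks that did have a high fold were those of SOD2 (8.90, at 15850 bases), C9orf85 (7.77, at 13248), WIPF2 (7.22, at 19204) and ACACA (5.90, at 28109). Promoter-class peaks take precedence in the annotation, and the member of the 3' UTR class closest to a transcript start lay 3025 bases from it. A 3' UTR within 3 kb of any transcript start is therefore counted elsewhere, and 267 promoter-class peaks lay within 3 kb of a gene's 3' end, more than the 142 of the 3' UTR class.

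**Figure D3:**
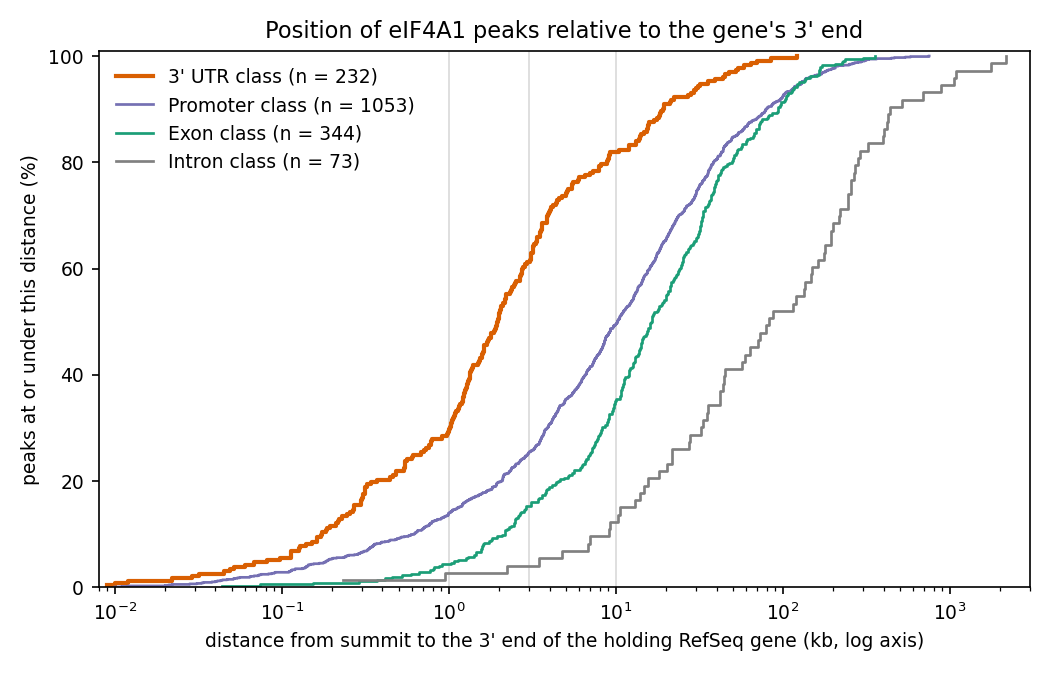
Cumulative share of peaks (percent) against the distance from the summit to the 3' end of the holding RefSeq gene (kb, log axis) for the 3' UTR, promoter, exon and intron classes; grey lines mark 1, 3 and 10 kb. The 3' UTR curve reaches 61.2% at 3 kb, where the promoter curve is at 25.4% and the exon curve at 15.4%.

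For 172 of the 244 peaks (70.5%) the summit lay inside the gene listed in the authors' table, close to the exon class (73.2%) and below the promoter class (87.8%). The other 72 lay only inside a different gene, and the table named a protein-coding neighbour for 58 of them, a long noncoding RNA for 7 and a microRNA gene for 4. None of the 244 peaks overlapped a RefSeq microRNA hairpin, and the 4 listed under microRNAs lay in MAP4 (MIR1226), ENO1 (MIR6728), ZSWIM4 (MIR24-2) and NGFR (MIR6165). Both sets had like support, since a fold of at least 5 was reached by 25.6% of the 172 (interval 19.2 to 32.8) and 27.8% of the 72 (17.9 to 39.6). Of the 60 reassigned peaks with a distance, 43 lay within 3 kb of the 3' end of the gene that holds them (71.7%, interval 58.6 to 82.5), against 99 of 172 for the rest (57.6%, 49.8 to 65.0). RefSeq protein-coding genes held 242 peaks and long noncoding RNAs alone held 2. The names below are those of the holding gene, with the listed name beside it where it differs. By either assignment there were 227 distinct genes, and these were 1.05% of the 20056 protein-coding genes by name (210 genes) and 1.12% by gene body (225).

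Lipid synthesis contributed 7 holding genes of the 43 in that list (16.3%), against 1.12% of all protein-coding genes, but the list had been written after some of its genes had been noticed in these data and its count is a description only. DHCR7, which reduces the sterol ring late in cholesterol synthesis, had 5.61 on 5 reads, 8140 bases from the 3' end. ACACA, encoding the acetyl-CoA carboxylase that makes malonyl-CoA for fatty acid synthesis, had folds of 5.90 and 4.83 at 2 peaks, 28109 and 12018 bases from its 3' end. SCD, the desaturase that puts the double bond into stearate, had 4.56 on 5 reads and was listed under OLMALINC. The lowest were STARD4, a sterol carrier (3.93, listed under STARD4-AS1), FDFT1, squalene synthase (3.68), and HSD17B7 (2.95), on 3, 3 and 2 reads. A peak of any class was held by 20 of the 43 genes (46.5%), beside 6.98% of all protein-coding genes, so 13 of them had their peaks outside the 3' UTR class. This share was not particular to lipid synthesis. Over the other lists it ran from 0% for epithelial markers to 43.6% for Golgi, endosome and vesicle trafficking, with 39.0% for adhesion, junction and surface genes.

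The SREBP pathway switches the enzymes of lipid synthesis on when sterols are low. In its list INSIG1 was the only one of 20 genes with a 3' UTR class peak (5%, beside 1.12% of all protein-coding genes). INSIG1 is the ER membrane protein that keeps SREBP from leaving for the Golgi. Its 2 peaks lay 316 and 1626 bases from the 3' end, with folds of 4.91 on 4 reads and 5.70 on 5 reads, and it held no peak of another class. Of the 20 genes 8 (40%) held a peak of any class, beside the same 6.98% of protein-coding genes. The list was chosen with earlier results of these data known, and the 5% rests on INSIG1 alone, so both counts are descriptions only.

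In the list of actin and microtubule motors and adaptors 3 of 47 genes held a peak (6.38%), KIF3C, CLIP2 and MAP4. The share over all protein-coding genes was 1.12%. Such list counts rest on few genes and are descriptions only. KIF3C, a heavy chain of a kinesin-2 motor, had its peak at chr2:25928591-25928617, 27 bases long and 2005 bases from the 3' end, with a −log10 q of 15.5, the highest of the 244. CLIP2, a linker of microtubule plus ends, had folds from 5.07 to 5.61 at its peaks, and MAP4, a microtubule-stabilising protein, had 5.70 on 6 reads. The next genes are in none of the lists and are named for their folds. ARHGAP1 and ARHGAP23 had folds of 7.83 on 7 reads and 6.33 on 6 reads. WIPF2, a partner of the WASP proteins that start actin branches, had 7.22 and the longest peak of the class, 263 bases. NF2 encodes merlin, the tumour suppressor that links the membrane to actin. It had 7.12 on 7 reads at a peak listed under CABP7 and 2.95 on 2 reads at a second.

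The list of kinases and phosphatases, which also takes in STAT3, a gene of neither kind, had 4 holding genes of 54 (7.41%). The share over all protein-coding genes was 1.12%. ABL1, the tyrosine kinase gene, had 6.80 on 7 reads at a peak listed under QRFP (chr9:130885858-130885957). STAT3, the transcription factor of cytokine receptors, had 5.85 on 10 reads, 228 bases from its 3' end. MAP2K3, a kinase upstream of p38, had 4.91 on 4 reads, and MAP3K11, a mixed-lineage kinase listed under KCNK7, had 2.96 on 2. DUSP8, a phosphatase that inactivates MAP kinases and is in none of the lists, had 6.88 on 6 reads. IGF1R, the insulin-like growth factor receptor gene, had 4.60 and shared the growth and survival list with STAT3, which made 2 of 40 genes (5%). The folds of this group ran from 2.96 to 6.88.

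Among transcriptional regulators, BCL6, the zinc finger repressor of germinal centre B cells, had 6.23 on 6 reads and 3.90 on 3, in a stretch that the antisense gene LOC100131635 overlaps. TLE3, a Groucho corepressor, had 2.95 on 2 reads. BCL6 and TLE3 were the holders among 45 listed repressors and chromatin regulators (4.44%, beside 1.12% of all protein-coding genes). NACC1, a BTB-domain corepressor listed under STX10, had 6.23, the zinc finger genes ZNF668 and ZNF865 (listed under ZNF784) had 6.65 and 6.14, and CREB3L3, a transcription factor released from the ER membrane and listed under SIRT6, had 6.04. Each of these 4 peaks rested on 6 reads and lay within 3 kb of a 3' end. In the ER stress list 2 of 24 genes held a peak (8.33%). ATF3, a factor induced through the integrated stress response, had 5.51 on 5 reads and ERN1, the IRE1 sensor, 3.92 on 3.

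The other genes with the 25 highest folds belong to no shared list and are given one by one. SOD2, the mitochondrial superoxide dismutase gene, had the next fold after KIF3C, 8.90 on 9 reads (chr6:159684871-159684925). CISD3, an iron-sulphur protein of mitochondria, had 6.70 on 7 reads at a peak that also lies in PCGF2. CRABP2, which carries retinoic acid to the nucleus, had the same fold and read number, 171 bases from its 3' end. SLC41A1, a magnesium transporter, had 6.80 on 7 reads. ENO1, encoding the glycolytic enzyme enolase, had a lower fold, 4.79. It was the only one of 22 glycolysis and hypoxia genes with such a peak (4.55%, beside 1.12% of all protein-coding genes). UBE4A, a ubiquitin chain elongation factor listed under ATP5MG, had 7.60 on 7 reads, and CAPN5, a calpain protease gene listed under MYO7A, had 6.33 on 6. The list of ubiquitin ligases and proteases, which was fixed separately, had 0 of 38, and at 1.12% a list of this size would be near 0 in any case. Of the rest, ZZEF1 had 7.47, IGSF8, a tetraspanin partner at the cell surface, 6.84, and PRRC1 5.95.

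Membrane trafficking and adhesion genes had folds from 3.85 to 6.88. COPA, a coatomer subunit listed under PEX19, had 5.18 on 6 reads. RAB11A, the GTPase of recycling endosomes, had 4.88 on 5 and SORT1, the sorting receptor sortilin, 3.91 on 3. These made 3 of 55 genes in the trafficking list (5.45%), beside 1.12% of all protein-coding genes. TRAPPC9, a subunit of a Golgi tethering complex outside the list, had 6.88 on 6 reads at a peak listed under KCNK9. Of the 41 adhesion, junction and surface genes 4 held a peak (9.76%). JUP, the junction protein plakoglobin, had 5.10 at each of 2 peaks, APLP2, a relative of the amyloid precursor, had 4.79, 4.60 and 3.85, ITGA2, an integrin chain listed under MOCS2, had 3.93 and CD44, the hyaluronan receptor, had 3.92.

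The 47 initiation factors, the 13 elongation and release factors and the 22 cleavage and polyadenylation factors held 0 peaks of the 3' UTR class, while 5, 1 and 3 of them held a peak of some class (10.6%, 7.69% and 13.6%, beside the 6.98%). At the background of 1.12%, lists of this size would be near 0 in any case, so these counts say little. Of 78 cytosolic ribosomal protein genes RPS24 held 1 (3.99 on 3 reads), and the peak listed under RPL37A lay in the noncoding gene LOC101928156. None of the 10 epithelial, 11 luminal prostate or 16 blood and stromal markers held a 3' UTR peak, and a peak list gives no expression level from which the cell type could be checked. Over all 19 lists, 30 of 677 genes held a 3' UTR peak (4.43%) and 23 (3.40%) were named for one. For a peak of any class other than intergenic 140 of the 677 were named, beside 6.83% of all protein-coding genes. Several lists were written around genes already seen to have peaks, so these totals are descriptions only.

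**Figure D4:**
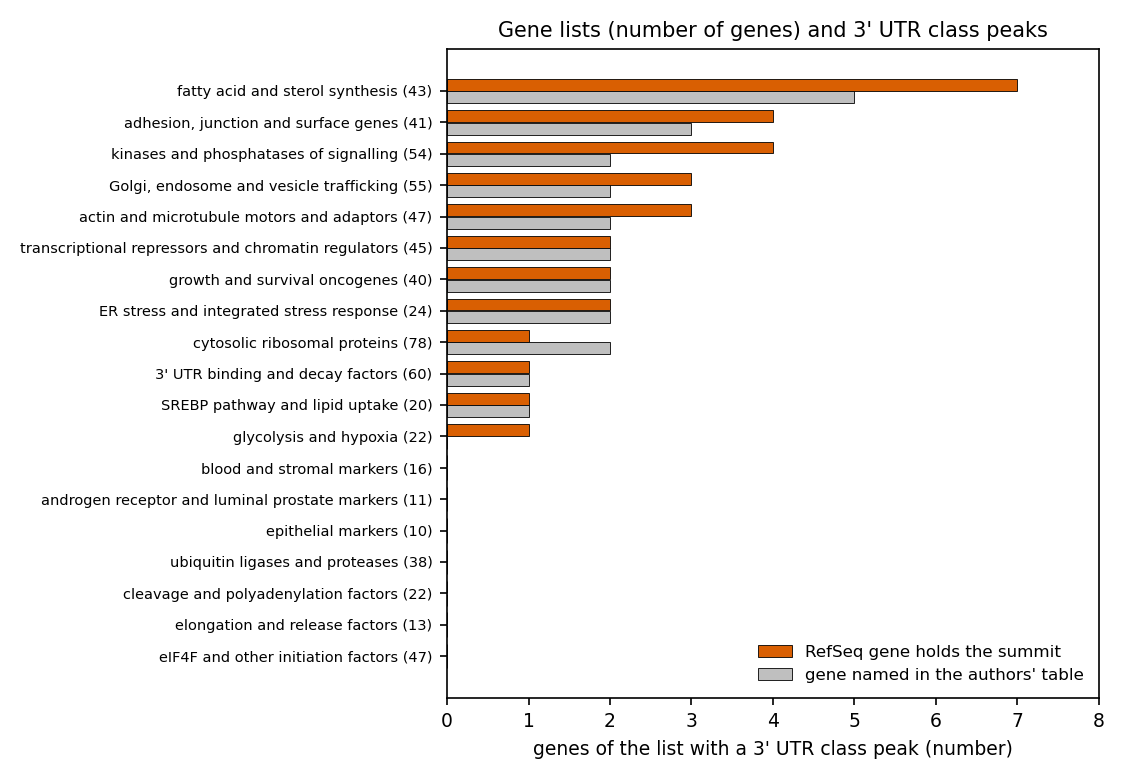
Number of genes of each list with a 3' UTR class peak, by the RefSeq gene that holds the summit (orange) and by the gene the authors' table names (grey); the number of genes in the list is in brackets. Fatty acid and sterol synthesis has the longest bars (7 and 5 of 43), and 7 lists have no holding gene.

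Most genes had a single peak of the 3' UTR class, which may follow a transcript other than the one that ends the gene. Of the 227 holding genes 212 had 1, 13 had 2 and 2 had 3. The 3 summits of CLIP2 lay 9, 1334 and 1949 bases from the 3' end and had folds of 5.51, 5.61 and 5.07 on 5, 5 and 13 reads. Those of APLP2 lay 9125, 14716 and 15615 bases away, with 8, 3 and 4 reads, so they were spread at a distance from the end of the gene, whereas those of CLIP2 lay near it. JUP (560 and 1062 bases, 5 reads each), SBK1, a kinase gene (1193 and 2656, with 3 and 5 reads), NUAK1, an AMPK-related kinase gene (1164 and 2919, 3 reads each), and CELSR2, a seven-pass cadherin gene (218 and 1512, 3 reads each), held their pairs within 3 kb of the end. GPR153, an orphan receptor gene listed under HES3 (49 and 1101, with 3 and 4 reads), and SPATA33, listed under CDK10 (480 and 996, with 3 and 2 reads), did so too. ADCY1, an adenylyl cyclase gene listed under SEPTIN7P2, had summits at 611 and 3193 bases, and ABHD4, a lipid hydrolase gene, at 2003 and 3109 on 2 reads each. NF2 (2780 and 30182), STK38L, a kinase gene of the Hippo branch (3543 and 17550), BCL6 (7932 and 10434) and ACACA (12018 and 28109) had them farther apart or farther in. No pair lay within 100 bases, so each peak was counted on its own.

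Some of these genes had peaks elsewhere as well. Of the 227 genes, 50 (22.0%, interval 16.8 to 28.0) also held a peak of another class, 37 of them a promoter-class and 15 an exon-class peak, and 177 held none. The share was 17.6% (13.8 to 22.1) among 346 genes with an exon-class peak and 9.22% (7.42 to 11.3) among 911 with a promoter-class peak. The interval of the 3' UTR genes overlaps that of the exon genes and lies above that of the promoter genes, but a gene with a peak in a small class has more peaks of other classes to meet. BCL6 held 3 promoter-class peaks beside its 2, CLIP2 held 2, and ACACA and JUP each held 1 promoter-class and 1 exon-class peak. The promoter-class peak of JUP (6.43 on 6 reads) and 1 of those of CLIP2 (6.51 on 7 reads) had higher folds than the 3' UTR class peaks of the same gene.

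**Figure D5:**
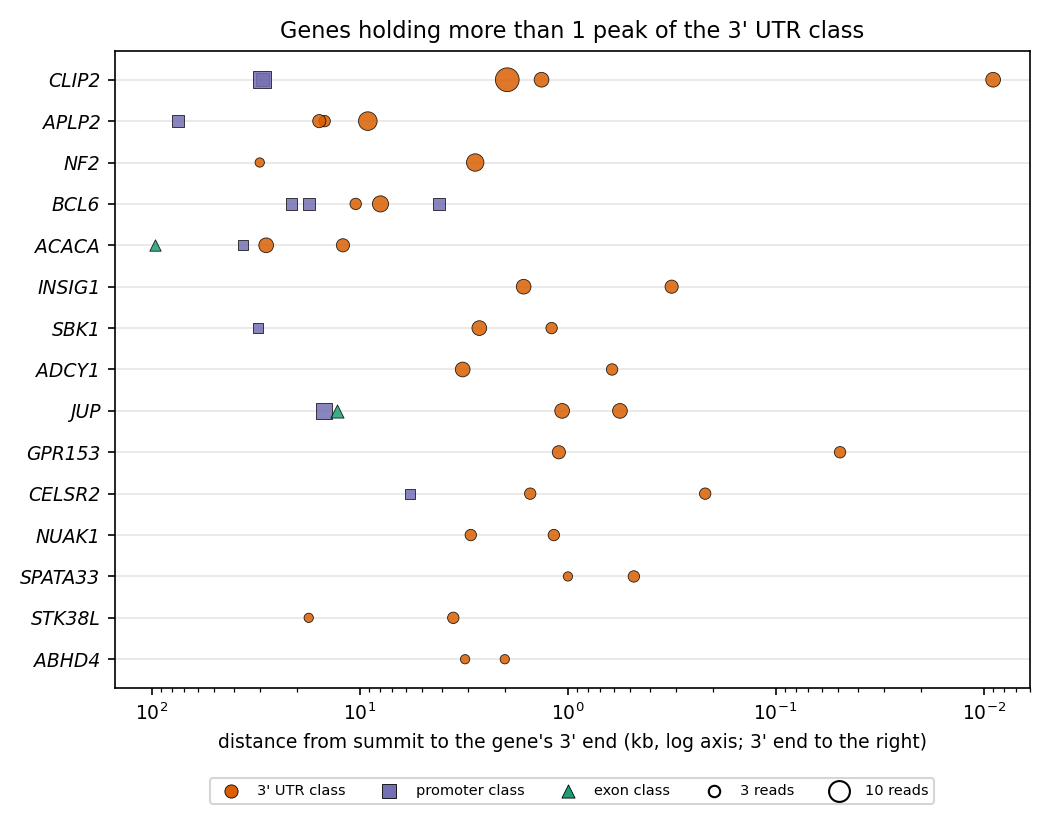
Distance from each summit to the gene's 3' end (kb, log axis, 3' end to the right) for the 15 genes holding more than 1 peak of the 3' UTR class; circles are 3' UTR peaks, squares promoter-class and triangles exon-class peaks, and symbol area grows with the reads at the summit. CLIP2 has 3 circles, 1 of them 9 bases from the end, while those of APLP2 and ACACA lie 9 kb or more away.

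The 244 peaks were on every chromosome except Y. Per 100 protein-coding genes there were 2.44 on chromosome 22 (11 peaks), 2.13 on chromosome 7 (20), 2.05 on chromosome 17 (24) and 1.79 on chromosome 19 (26). The lowest were chromosome 4 with 0.260 (2 peaks) and chromosome 13 with 0.296 (the 1 peak in RB1). Of the peaks on chromosome 7 the 3' UTR class made up 20 of 100 (interval 12.7% to 29.2%), and CLIP2, INSIG1 and ADCY1 gave 7 of those 20. On chromosome 4 it made up 4.44% (0.543 to 15.1). Both intervals include the 12.7% of the whole set.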

How the data were processed

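RNA immunoprecipitated with eIF4A1 or IgG from DU145 cells was sequenced, 1 library each. BWA, STAR, Salmon, Picard, ChIPseeker, MACS2 and DESeq2 are named as tools, and hg19, GRCh38 and hg38 as builds, per the submitters' processing notes. Versions, roles, duplicate removal, the control library and the filter mentioned in the peak names are not given in the sources used here. A peak track deposited by the authors gives, per the file headers and column order, each peak's fold (a ratio to control), −log10 p, −log10 q and score. The annotated table deposited by the authors gives summits, −log10 q, class and nearest gene. Depth is known per peak only, since library totals are not among the values used.

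The 254 rows of the class gave 244 peaks by peak name, and summit and −log10 q were equal in both files for all 244. Coordinates are hg38: the authors' transcript overlapped the RefSeq (GRCh38.p14) span of the same gene ID in 243. Reads and background were solved from fold = (reads + 1)/(background + 1) and the Poisson p. All 244 were within 0.01 of a whole number, with 1 solution each. Folds and p-values simulated from recovered values with the same equations were solved back. That checks the solving step and not whether the equations are those of the authors. The holding gene was the RefSeq gene over the summit, protein-coding first, then the nearest 3' end. Strand came from the RefSeq promoter table or the authors' table, which agreed in 1227 of 1229 genes. All 244 gene IDs matched RefSeq.

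The class and gene lists were chosen with earlier results of these data known. Named genes are the 25 highest folds, genes with 2 or more peaks, up to 4 per list, the 10 with most reads and the 5 with most background. NGFR, ZSWIM4, TIMP2, PCSK1N, ULK2, TXNRD2 and RB1, and the genes of the lipid list past 4, were named after their values were seen. A few results under this rule are not reported here. Shares have exact Clopper-Pearson 95% intervals. Stricter q, fold and read minimums, merged peaks, bases, other distances and gene assignments were tried. Python 3.11.15, numpy 2.4.6, pandas 2.3.3 and SciPy 1.17.1 were used.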

Additional observations from a re-analysis of the deposited data

How the results depend on the processing

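Of 24 alternatives 13 stayed and 11 moved, where a count moved if it changed by over 1.5 times and a share or a median if it left its own 95% binomial interval. The 244 peaks became 60 at a −log10 q minimum of 5, 64 with a fold of at least 5 and 73 with at least 5 reads, and fewer peaks enter each by construction. The share of 12.7% was 14.8% among peaks with a fold of at least 5 and 29.8% outside the promoter class, where the denominator is smaller. The 227 genes became 60 at the stricter q and 70 with at least 5 reads, the median fold of 3.99 became 4.93 at the stricter q, and within 1 kb instead of 3 kb of the 3' end the share of 61.2% was 29.7%. The 23 list genes named for a peak became 7 at the stricter q and 140 when any class other than intergenic counted. Merging near peaks left 244, and gene bodies left 227 genes and gave 30 list genes. With a median of 3 reads per peak, differences of 1 read are not resolved. With 1 library per antibody no replicate could be left out. No paired analysis was possible because only 1 eIF4A1 and 1 IgG library were analysed.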

Other observations

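Gene families seen among the holding genes were counted by symbol after their members had been noticed, so the counts are descriptions. Cytohesins and ARF GAPs turn the ARF GTPases of the Golgi and plasma membrane on and off. The count by symbol took in 7 such genes and not the whole ARF GAP family. Of these, 3 held a 3' UTR peak, against 1.12% of all protein-coding genes: CYTH3 (4.60 on 4 reads), ARFGAP3 (3.99 on 3) and CYTH1 (3.93 on 3). With so few genes and reads these shares are imprecise.

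Solute carriers held a peak in 9 of 386 (2.33%) and zinc finger genes in 7 of 580 (1.21%), the latter near the background. Among the carriers, SLC25A23, a mitochondrial carrier, had a fold of 5.39 on 6 reads. Among annexins, ANXA2 had a fold of 4.86 on 6 reads, 306 bases from its 3' end, and ANXA6 3.95 on 3 reads, 21496 bases away. These made 2 of 14 annexins (14.3%), beside 1.12% of all protein-coding genes.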
